A study of Homo sapiens with 6 samples.

Results

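The response of the primary effusion lymphoma line BC1 to the ribonucleotide reductase inhibitor 3-AP was compared with the response of the lines BCP1 and BCBL1. Of the 6 arrays of the series, 2 were of BC1, 1 from a vehicle culture and 1 from a culture exposed for 48 h to 2.5 µM 3-AP. Each of the other lines gave 1 vehicle array and 1 array of the same dose and time. Primary effusion lymphoma is a B-lineage lymphoma of the body cavities with a plasma cell-like phenotype, and its cells carry Kaposi sarcoma-associated herpesvirus. BC1 is known to carry Epstein-Barr virus as well. All cultures were grown in RPMI 1640 with 20% serum and used at low passage, and the labels do not say that any array was repeated from a separate culture. BC1 thus had 1 pair of arrays, and its own spread was not measured.

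For each gene the response of a line was its log2 ratio of 3-AP over vehicle, from the processed intensities that the authors deposited. The BC1 difference was the response in BC1 minus the mean of the responses in BCP1 and BCBL1. It was computed for 13875 features, of which 9887 carried a gene symbol and 3988 were probes with no symbol. The features were detected at p under 0.05 on at least 1 array of BC1 and at least 1 of BCBL1.

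Ribonucleotide reductase makes the deoxyribonucleotides that DNA synthesis consumes, and 3-AP (triapine) is an iron chelator that disables its small subunit. Cells deprived of deoxyribonucleotides slow replication forks and can stabilise p53, a transcription factor whose targets halt the cell cycle, repair DNA or start apoptosis. Interferon-stimulated genes are switched on by STAT and IRF factors. Sterol synthesis genes are driven by SREBP factors and ribosome biogenesis genes largely by MYC, and both groups serve growing cells.

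Before the results, 1 property of the arrays has to be stated. With vehicle, the log2 levels on the BCP1 and BCBL1 arrays correlated across features at Pearson 0.995, and 0 of the 13875 features were 4-fold or more apart. BC1 correlated with them at 0.957 and 0.955, with 109 and 118 features 4-fold or more apart. The arrays labelled BCP1 and BCBL1 were therefore very alike. How far the gap between them stands for the spread between lines, rather than between repeats of 1 line, was not tested, and the standard errors and p-values of the test with line as a block rest on that gap. Genes are not independent replicates, and these correlations describe the arrays. Values are given for each line so that BC1 can be read against either line alone.

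The markers of the labelled cell type were present. Of 18 plasma cell markers, 13 were detected on all 4 arrays with their own detection p-values, and CD27, JCHAIN and POU2AF1 were detected on none. Of 22 mature B cell markers on the array, 1 was detected on all 4 and 9 on none, among them PAX5 and EBF1. Of 19 T and NK cell markers, 12 were detected on none, among them CD3D, CD3E, CD8A and LCK. The summed intensity of the T and NK list was 10331 and 20430 in BC1 with vehicle and with 3-AP, against a range of 15499 to 20135 in the other lines. Most of it came from 1 probe, that of the receptor subunit IL2RB, at 7796.0 and 17893.1 in BC1. Of 18 myeloid and dendritic markers, 3 were detected on all 4 arrays and 10 on none, and their sum ranged from 3336 to 3637 over the 6 arrays.

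The response was broader in BC1 than in either other line. In BC1, 193 features were 2-fold or more higher with 3-AP and 140 were 2-fold or more lower. In BCP1 these numbers were 52 and 8, and in BCBL1 they were 49 and 12. The standard deviation of the log2 ratios over all features was 0.396 in BC1, 0.278 in BCP1 and 0.277 in BCBL1, while the median ratio of each line was within 0.013 of 0. The responses of BCP1 and BCBL1 correlated across features at Pearson 0.76. BC1 responses correlated with these at 0.53 and 0.57. In RNA from whole cultures, fewer cells of a kind and less RNA per cell cannot be told apart.

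Part of the response was shared. Of the 37 features 2-fold or more higher in both BCP1 and BCBL1, 28 were also 2-fold or more higher in BC1, and of the 6 that were 2-fold or more lower in both, 5 were also lower in BC1. Of the 193 features 2-fold or more higher in BC1, 67 were higher by at least 0.5 log2 units in both other lines and 24 were within 0.25 of 0 in both. Of the 140 that were 2-fold or more lower, 36 were lower by at least 0.5 in both other lines and 29 were within 0.25 of 0 in both.

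The BC1 difference was tested with limma's moderated test, with cell line as a block. An adjusted p under 0.05 (Benjamini-Hochberg over all features) was reached by 2034 features, which is 14.7% of those tested. The response was higher in BC1 for 1005 of them (7.24%) and lower for 1029 (7.42%). The fit had 1 residual degree of freedom, the gap between the BCP1 and BCBL1 responses, and BC1 was assumed to vary like them. The median standard error was 0.157, so the test acted nearly as a limit of size, and the smallest difference called was 0.435. After background subtraction with limma's nec and quantile normalization 0 features passed, with 2530 at an unadjusted p under 0.05. Each call below was thus lost in that setting. For it, BCP1 was given detection p-values by intensity rank, from the mean profile of the BCBL1 and BC1 arrays. How much of the loss comes from that step was not tested. With the responses scaled to a common SD 720 features passed, 350 higher and 370 lower. When line was not used as a block, 96 features passed (0.692%), 46 higher (0.332%) and 50 lower (0.36%). A difference of at least 1 log2 unit, with no test, was reached by 64 features with a higher (0.461%) and 59 with a lower response in BC1 (0.425%). After scaling to a common SD these were 20 and 44, and after background subtraction 441 and 466. The sign of BC1 minus BCBL1 was the same for all 2034 called features in the non-normalized signals of those arrays, quantile-normalized here. The same arrays gave both sets of values, and the check was part of the rule that chose the comparison. It is thus no separate support for the calls.

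**Figure D1:**
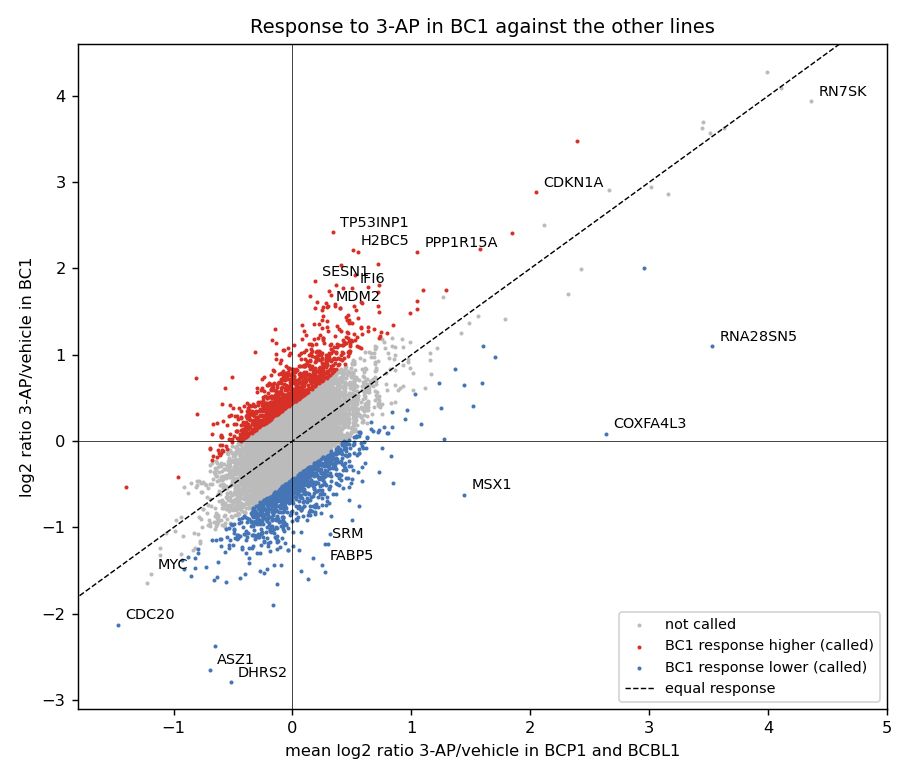
The log2 ratio of 3-AP over vehicle in BC1 (vertical axis) is plotted against the mean of the same ratio in BCP1 and BCBL1 (horizontal axis) for 13875 features, 1 point each. Red points had a higher and blue points a lower response in BC1 by limma's test at adjusted p under 0.05, grey points were not called, and the dashed line marks equal responses. TP53INP1 and DHRS2 lie far from the line, and CDKN1A was high in every line.

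Targets of p53 had the highest median BC1 difference among 35 gene lists. Of 32 targets on the array 27 were tested, and the response was higher in BC1 for 19 and lower for 0, against 7.24% of all features called higher. The median BC1 difference was 0.70, against 0.003 over all features. The median response was 0.84 in BC1, 0.17 in BCP1 and 0.12 in BCBL1, and all 27 tested targets had a positive ratio in BC1. BC1 lay above both other lines for 24 of 27 targets, against 40.4% of all features. Without line as a block, 4 of the 27 passed, TP53INP1, SESN1, MDM2 and XPC. The list was chosen with earlier results of these data known.

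TP53INP1, a stress protein that promotes p53 activity and autophagy, had the highest BC1 difference of all genes detected on all 4 arrays with their own detection p-values. Its intensity was 1093.9 with vehicle and 5845.5 with 3-AP in BC1, 1218.1 and 1366.2 in BCP1, and 1228.8 and 1755.1 in BCBL1. The vehicle levels of the 3 lines were close, and the BC1 level with 3-AP was far above the rest. The BC1 difference was 2.08 ± 0.16 (SE, 1 BC1 pair; limma adjusted p = 8.2e-16).

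SESN1, a sestrin that restrains mTORC1, was at 222.3 and 802.0 in BC1 with vehicle and 3-AP. It was at 255.0 and 290.6 in BCP1 and at 253.4 and 289.3 in BCBL1, so that only the BC1 array with 3-AP stood apart. The difference was 1.66 ± 0.16. MDM2, the ubiquitin ligase that degrades p53, was at 336.1 and 991.6 in BC1, at 230.0 and 294.0 in BCP1, and at 218.8 and 258.8 in BCBL1. Its difference was 1.26 ± 0.16, and BC1 was already the highest line with vehicle. PPM1D, a phosphatase that switches off the damage response, and XPC, which finds lesions for nucleotide excision repair, had differences of 1.11 ± 0.16 and 1.02 ± 0.16. PPM1D had responses of 1.07 in BC1 against 0.10 in BCP1 and -0.18 in BCBL1. XPC had responses of 1.00, 0.04 and -0.09 in the same order.

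CDKN1A, which encodes the cyclin-dependent kinase inhibitor p21, was high with 3-AP in every line. Its intensity was 3343.9 and 24609.7 in BC1, 1225.7 and 6721.2 in BCP1, and 2786.0 and 8673.7 in BCBL1. The BC1 ratio was thus 7.36-fold, and the BC1 difference was 0.83 ± 0.18 (limma adjusted p = 5.95e-04). The value depended on the probe and the setting. A second CDKN1A probe had a difference of -0.17, the difference against BCP1 alone was 0.43, and after the responses of each line were scaled to a common SD it was -0.03.

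Other called targets act in growth arrest, apoptosis and repair. GADD45A, a growth arrest protein, had a BC1 difference of 0.91, the pore-forming protein BAX 0.84, the cyclin G gene CCNG1 0.79 and the ubiquitin ligase subunit FBXW7 0.79. A second probe of each gave less, 0.68 for GADD45A, 0.20 for BAX, 0.16 for CCNG1 and 0.215 for FBXW7. The trail receptor TNFRSF10B had a difference of 0.65 and the repair factor DDB2 one of 0.60. BAX was at 1140.9 and 1985.9 in BC1, and the other lines stayed between 585.0 and 606.2. The 8 tested targets that were not called were PMAIP1, ZMAT3, GADD45B, TNFRSF10A, TNFRSF10D, FAS, BBC3 and AEN, with differences from -0.14 to 0.21. PMAIP1 (NOXA) had responses of 0.98 in BCP1 and 0.98 in BCBL1, against 0.84 in BC1. For ZMAT3 the probe used had a difference of -0.14, while another of its 3 probes gave 1.16.

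Some targets bear on the enzyme that 3-AP inhibits, or lie outside the tested list. RRM2B, the p53-inducible small subunit of ribonucleotide reductase, was at 985.2 and 2159.6 in BC1, at 585.3 and 814.8 in BCP1, and at 673.0 and 897.6 in BCBL1. Its BC1 difference was 0.69 ± 0.16 (limma adjusted p = 0.00117). The subunits RRM1 and RRM2, in contrast, had responses of 0.40 and 0.84 in BC1, within those of the other lines, and differences of -0.02 (adjusted p = 0.964) and 0.01 (adjusted p = 0.972). DRAM1, a lysosomal protein that couples p53 to autophagy and was not on the list, was at 319.9 and 929.5 in BC1. It stayed between 210.5 and 260.1 in the other lines, for a difference of 1.35 ± 0.16. PHLDA3, an inhibitor of Akt, was detected on both BC1 arrays and on neither BCBL1 array, and so was not tested. It was at 359.0 and 748.9 in BC1 and between 122.8 and 130.6 in the other lines.

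**Figure D2:**
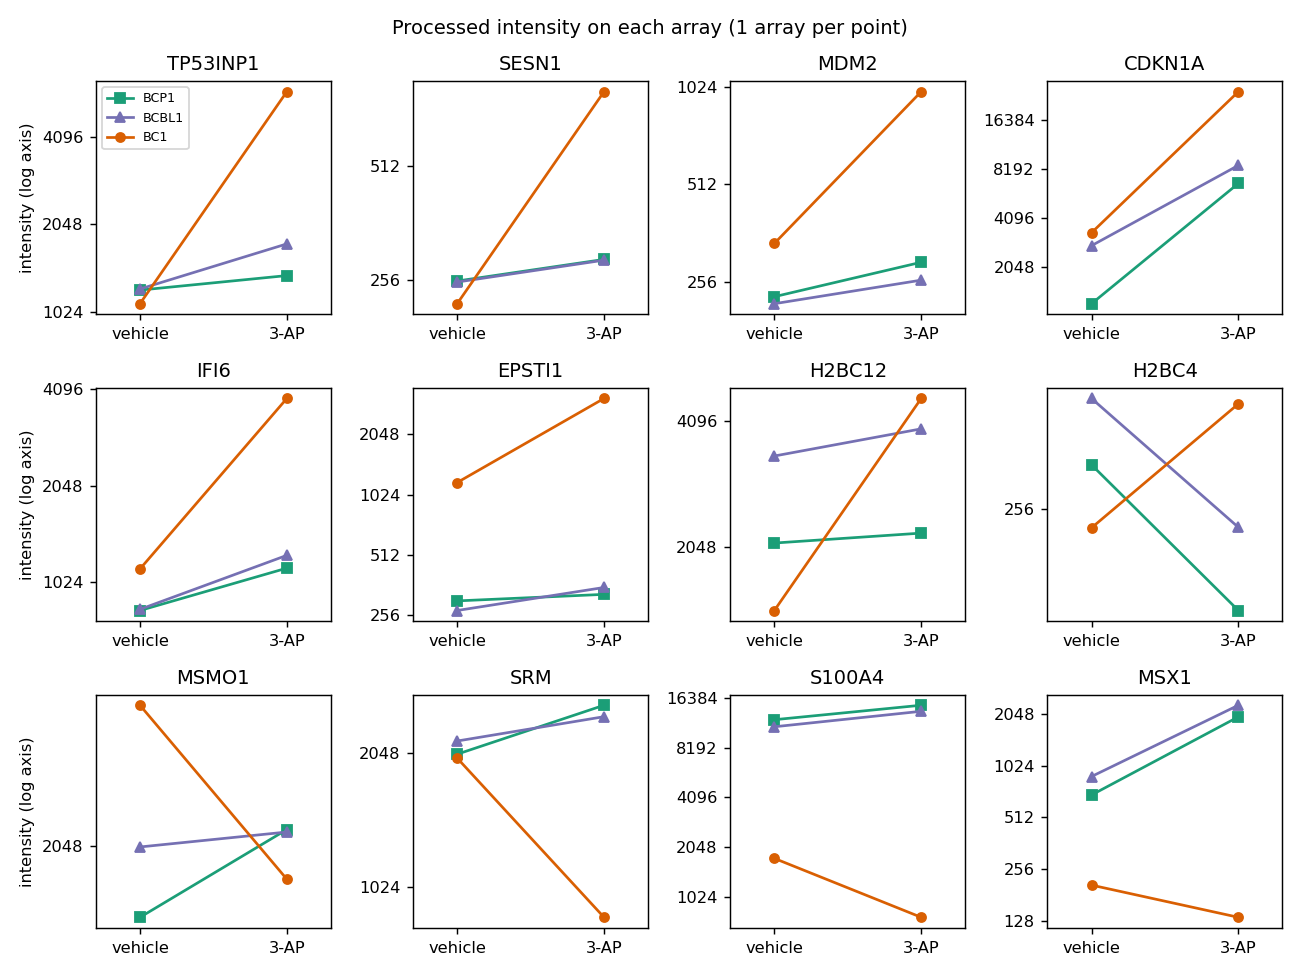
The processed intensity (log axis) of 12 genes is shown on each array, with vehicle on the left and 3-AP on the right, 1 point per array and a line joining the arrays of a cell line. BC1 with 3-AP stood apart for TP53INP1, SESN1 and MDM2, H2BC4 and S100A4 had opposite slopes in BC1, and every line was higher with 3-AP for CDKN1A.

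Interferon-stimulated genes came next. Of 48 on the array 33 were tested. The response was higher in BC1 for 19 and lower for 0, against 7.24% of all features called higher. The median BC1 difference was 0.55, and BC1 lay above both other lines for 28 of 33, against 40.4% of all features. The median response was 0.59 in BC1, 0.16 in BCP1 and 0.17 in BCBL1. Without line as a block 3 passed, IFI6, EPSTI1 and IRF7.

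Effectors and regulators were both among the called genes. IFI6, a mitochondrial interferon-induced protein, was at 1124.8 and 3838.1 in BC1, at 834.1 and 1131.7 in BCP1, and at 841.1 and 1240.7 in BCBL1. The BC1 difference was 1.27 ± 0.16 (limma adjusted p = 8.86e-09), and a second IFI6 probe gave 0.70. EPSTI1, another interferon-induced gene, was at 1175.9 and 3105.9 in BC1 and between 268.3 and 350.1 on the other 4 arrays. It was higher in BC1 already with vehicle, and its difference was 1.16 ± 0.16.

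IRF7, the factor that amplifies type I interferon production, was at 248.0 and 830.6 in BC1 and between 155.0 and 208.5 in the other lines. Its difference was 1.44 ± 0.16, although it was detected on 3 of the 4 arrays with detection p-values. IRF9, the DNA-binding subunit of the ISGF3 complex, had responses of 1.13 in BC1 against 0.28 in BCP1 and 0.47 in BCBL1, for a difference of 0.75. The guanylate-binding protein genes GBP1 and GBP2 had differences of 0.89 and 0.84, and the ubiquitin-like modifier ISG15 one of 0.70. Of the genes not called, IFIT2 had responses of 0.61 in BCP1 and 0.89 in BCBL1, against 0.31 in BC1, and IRF1 had 0.03, 0.67 and 0.59.

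Several of the best known members could not be tested because they were not detected in BCBL1. MX1, a GTPase that blocks viral replication, was at 500.0 with vehicle and 2057.9 with 3-AP in BC1, and between 117.0 and 132.0 on the other 4 arrays. IFI27 was at 196.9 and 967.6 in BC1 and between 129.2 and 145.9 elsewhere. TRIM22, an antiviral ubiquitin ligase, was at 268.3 and 1059.2 in BC1 and between 123.8 and 141.6 elsewhere. These were 4.12-fold, 4.91-fold and 3.95-fold within BC1. IFIT1 was at 153.7 and 311.4, and the 4 arrays of the other lines lay between 144.1 and 154.6. Other members detected in BC1 and not in BCBL1 moved less or hardly at all. With vehicle and 3-AP in BC1, IFIT3 was at 366.6 and 562.2, MX2 at 153.9 and 157.4, and DDX60 at 154.1 and 161.4. Undetected arrays give no ratio, so no difference between lines can be given for these genes.

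Promoters of this list are shown because its members had higher responses together. Promoter sequence was taken from RefSeq (GRCh38.p14) for the 250 bases before each gene's start. The core of the interferon-stimulated response element was searched on both strands, as GAAA, a pair of any bases and GAAA again. They stood in 14 of 26 tested members with a promoter (53.8%) and in 8 of 15 called members (53.3%). Of 8058 tested features with a promoter 2.37% held them. The motif was chosen with results known, and a match describes the letters only. Of the tested members with the highest differences, those with a match include IFI6 (chr1:27672314-27672373, minus strand), EPSTI1 (chr13:42992257-42992316, minus strand) and GBP1 (chr1:89065301-89065360, minus strand). IFI27 (chr14:94110603-94110662, plus strand) and IFIT1 (chr10:89392482-89392541, plus strand) are shown as members detected in BC1 and not in BCBL1. Capitals mark each match.
IFI6: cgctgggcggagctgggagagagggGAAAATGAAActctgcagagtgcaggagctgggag
EPSTI1: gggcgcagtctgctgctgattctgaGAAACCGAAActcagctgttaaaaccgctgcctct
GBP1: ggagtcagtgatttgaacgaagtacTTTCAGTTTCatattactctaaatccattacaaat
IFI27: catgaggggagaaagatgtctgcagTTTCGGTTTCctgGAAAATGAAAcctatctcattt
IFIT1: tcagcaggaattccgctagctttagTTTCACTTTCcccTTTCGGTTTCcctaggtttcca

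Genes of cytokine and NF-kB signalling were called in smaller shares, 36.8% and 35%, against 14.7% of all features. Of 19 tested cytokine and JAK/STAT genes the response was higher in BC1 for 7 and lower for 0, with a median difference of 0.22. They included the interleukin-2 receptor subunit IL2RB (0.94), the transcription factor STAT3 (0.87), the shared receptor chain IL6ST (0.77), the cytokine IL6 (0.70) and the feedback inhibitor SOCS1 (0.60). Of 20 tested NF-kB genes 6 were higher and 1 was lower, with a median of 0.13. EBI3, a subunit of interleukin-27 and interleukin-35, was at 396.8 and 1817.3 in BC1 and between 145.4 and 228.8 elsewhere, and was detected on 3 of 4 arrays. Its difference was 1.65 ± 0.16. TNFAIP3, which ends NF-kB signalling, had a difference of 0.71, and NFKBIA had one of -0.35, which was not called.

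Histone genes formed the third list with a high median. They are normally copied into RNA without a poly(A) tail during S phase, and the H2B and H2A genes lie in clusters with shared promoters. Of 23 on the array 15 were tested, 8 with a higher and 1 with a lower response in BC1. Over all features these shares were 7.24% and 7.42%. The median BC1 difference was 0.50, and the median responses were 0.58 in BC1, -0.13 in BCP1 and 0.09 in BCBL1. Without line as a block 1 passed, H2BC4. The median was 0.32 without BCP1, 0.18 with no filter on dim probes and 0.91 after background subtraction. Probes of such near-identical genes can take signal from each other, so the single genes are uncertain.

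The highest were of the H2B family. H2BC5 was at 312.7 and 1447.7 in BC1, at 237.0 and 263.2 in BCP1, and at 373.3 and 684.2 in BCBL1. The BC1 difference was 1.70 ± 0.18, and the gap between BCP1 and BCBL1 was among the widest of the list. A second H2BC5 probe gave 0.88. H2BC12 was at 1447.9 and 4625.1 in BC1, at 2095.0 and 2212.2 in BCP1, and at 3374.3 and 3915.5 in BCBL1, for a difference of 1.53 ± 0.16. BC1 was the lowest line with vehicle and the highest with 3-AP, and a second H2BC12 probe gave a difference of 0.785.

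H2BC4 went opposite ways. It was at 237.2 and 393.7 in BC1, at 306.9 and 169.2 in BCP1, and at 402.5 and 237.7 in BCBL1, and the BC1 difference was 1.54 ± 0.16. H2BC21 had a difference of 1.18. H2AC6 was called as well, but was not detected in BC1 with vehicle, so its size is uncertain. H4C3, by contrast, was far brighter than the others and was lower with 3-AP in every line. It was at 22832.0 and 8313.2 in BC1, at 22213.9 and 13565.7 in BCP1, and at 22731.1 and 13611.5 in BCBL1, for a difference of -0.73 ± 0.16. The list thus held called members in both directions. The linker histone H1-2 had a difference of 0.13, and of -0.16 when BCP1 was left out.

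The octamer ATTTGCAT, known from H2B promoters, was searched in the same way and is printed for the H2B genes with the highest differences that hold it. It stood in 7 of 14 tested histone genes with a promoter (50%) and in 5 of 8 called ones (62.5%). An H2A gene can count there through a promoter shared with an H2B gene. Of tested features with a promoter 1.15% held it. The windows lay at chr6:26124017-26124074 for H2BC4, chr6:27146872-27146929 for H2BC12 and chr1:149886696-149886753 for H2BC21, all on the minus strand. The H2BC4 window is also that of its divergent neighbour H2AC6, which reads it on the plus strand. The H2BC21 window is likewise that of H2AC20 on the plus strand. H2AC20 had a BC1 difference of 0.18 and was not called. Its responses were -0.58 in BC1, -0.89 in BCP1 and -0.64 in BCBL1. Capitals mark the octamer.
H2BC4: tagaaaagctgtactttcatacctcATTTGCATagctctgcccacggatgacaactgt
H2BC12: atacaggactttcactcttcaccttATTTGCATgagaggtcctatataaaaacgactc
H2BC21: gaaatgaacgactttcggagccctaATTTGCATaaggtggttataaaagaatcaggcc

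**Figure D3:**
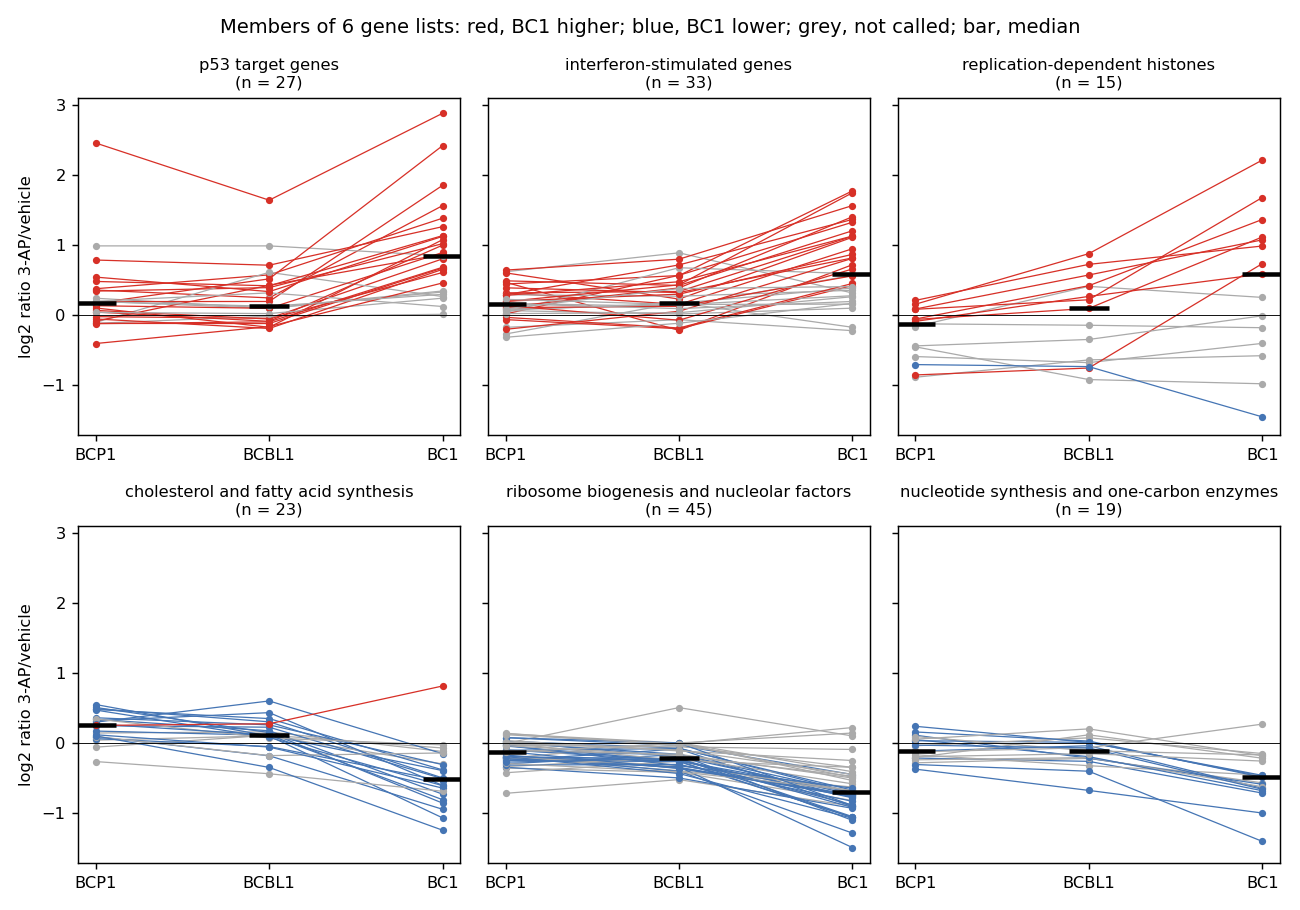
Each line joins the log2 ratios of 3-AP over vehicle of 1 gene in BCP1, BCBL1 and BC1, for the tested members of 6 gene lists. Red marks a higher and blue a lower response in BC1 by limma's test, grey marks genes not called and the black bar is the list's median in that line. The medians of p53 targets, interferon-stimulated genes and histones were highest in BC1, and those of the other 3 lists were lowest there.

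Genes of cholesterol and fatty acid synthesis had the lowest median. Of 26 on the array 23 were tested, and the response was lower in BC1 for 16 and higher for 1, against 7.42% of all features called lower. The median BC1 difference was -0.67. The median response was -0.52 in BC1, 0.24 in BCP1 and 0.10 in BCBL1, so the list lay on opposite sides of 0. BC1 lay below both other lines for 21 of 23, against 38.8% of all features. Without line as a block 2 passed, MSMO1 and ELOVL6.

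MSMO1, a sterol demethylase, was at 3749.0 and 1777.1 in BC1, at 1509.0 and 2199.2 in BCP1, and at 2040.8 and 2176.0 in BCBL1. BC1 was the highest line with vehicle and the lowest with 3-AP, and the BC1 difference was -1.40 ± 0.16 (limma adjusted p = 2.08e-09). Another of its 3 probes had a difference of 0.15. DHCR7, which makes cholesterol from its last precursor, was at 562.6 and 308.6 in BC1, at 387.0 and 547.7 in BCP1, and at 622.8 and 687.4 in BCBL1. Its difference was -1.19 ± 0.16, and both of its probes were on the same side.

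SCD, which desaturates fatty acids, was at 4416.1 and 1853.2 in BC1, at 1894.5 and 2022.2 in BCP1, and at 5040.9 and 3938.1 in BCBL1. Its difference was -1.12 ± 0.16. The sterol sensor INSIG1 had a difference of -0.99, the isomerase IDI1 -0.98, the synthase HMGCS1 -0.90, the citrate lyase ACLY -0.88 and the fatty acid synthase FASN -0.67. SREBF1, which encodes a factor that drives these genes, had responses of 0.47 in BCP1 and 0.34 in BCBL1, against -0.39 in BC1, for a difference of -0.80. SREBF2 had a difference of -0.23, which was not called. ACSS2, which makes acetyl-CoA from acetate, was the single member with a higher response, at 0.55.

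Sites of SREBP and of its partner NF-Y were searched in these promoters. The SREBP site was taken as ATCAC, any base and CCAC on either strand. It stood in 1 of 21 tested members with a promoter (4.76%), SREBF2, in 0 of 15 called members and in 0.0869% of tested features. The 5 letters CCAAT stood in 15 of 21 (71.4%), in 11 of 15 called members (73.3%) and in 36.4% of tested features. They are the site of NF-Y, and so short a run is frequent anywhere. The windows with the match are shown for 3 of the members described. They lay at chr4:165327459-165327513 on the plus strand for MSMO1, chr11:71448458-71448512 on the minus strand for DHCR7 and chr7:155297683-155297737 on the plus strand for INSIG1. Capitals mark each CCAAT or, on the reverse strand, ATTGG.
MSMO1: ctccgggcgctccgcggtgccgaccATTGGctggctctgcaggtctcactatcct
DHCR7: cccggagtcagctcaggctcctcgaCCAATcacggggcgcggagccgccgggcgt
INSIG1: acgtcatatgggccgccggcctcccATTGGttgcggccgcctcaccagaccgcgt

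Genes that build ribosomes had negative median responses in every line, with the lowest in BC1. Of 45 tested factors of ribosome biogenesis and the nucleolus, the response was lower in BC1 for 25 and higher for 0. Over all features 7.42% were called lower. The median BC1 difference was -0.47, and the median responses were -0.71 in BC1, -0.14 in BCP1 and -0.23 in BCBL1. BC1 lay below both other lines for 42 of 45, against 38.8% of all features. Without line as a block 1 passed, NOP16. When the responses were scaled to a common SD, the median was -0.31.

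NOP16, a nucleolar factor and MYC target, was at 983.4 and 347.5 in BC1, at 1293.1 and 1124.9 in BCP1, and at 1229.2 and 965.9 in BCBL1. The BC1 difference was -1.23 ± 0.16. NOLC1, a chaperone of small nucleolar ribonucleoproteins, was at 1246.7 and 508.5 in BC1, and had responses of -1.29 in BC1 against -0.19 in BCP1 and -0.41 in BCBL1. Its difference was -0.99. MRTO4 had a difference of -0.97, HEATR1 -0.93, LYAR -0.91 and the helicase DDX21 -0.76. The E-box CACGTG, a site of MYC, stood in the 250 bases before the start of 6 of 37 tested members with a promoter (16.2%), in 2 of 18 called members (11.1%) and in 9.27% of tested features with one. Nucleolin (NCL) was lower with 3-AP in all lines, with responses of -0.91 in BC1 against -0.73 in BCP1 and -0.53 in BCBL1, and was not called. MYC itself was at 5559.1 and 1906.6 in BC1, at 4228.7 and 1852.1 in BCP1, and at 4159.2 and 1816.7 in BCBL1. The lines reached nearly the same level with 3-AP, and the BC1 difference of -0.35 ± 0.16 was not called (limma adjusted p = 0.127).

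The proteins of the ribosome were tested apart from its assembly factors. Of 33 tested cytosolic ribosomal protein genes 0 were called by limma (0 at an unadjusted p under 0.05), and the median BC1 difference was -0.04, with members from -0.29 to 0.21. Of 28 mitochondrial ribosomal protein genes 9 were lower in BC1, against 7.42% of all features, and 0 higher, with a median of -0.24. MRPL17 had responses of 0.27 in BCP1 and 0.29 in BCBL1, against -0.75 in BC1. Of 27 proteasome genes 0 were called by limma (3 at an unadjusted p under 0.05), with a median of -0.01.

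Enzymes that make purines, pyrimidines and one-carbon units had a median BC1 difference close to that of the ribosome biogenesis list. Of 19 tested, 10 had a lower response in BC1, against 7.42% of all features, and 0 had a higher one. The median BC1 difference was -0.48. The median response was -0.50 in BC1 and -0.12 in both BCP1 and BCBL1, and the median difference was -0.29 when responses were scaled to a common SD. MTHFD1L, which makes mitochondrial formate, was at 1658.9 and 623.4 in BC1, at 1446.4 and 1163.5 in BCP1, and at 1451.4 and 1092.3 in BCBL1. Its difference was -1.05 ± 0.16, and it alone passed without the block. The serine hydroxymethyltransferase SHMT2, the pyrimidine enzyme CAD and the purine enzymes ATIC and IMPDH2 had differences between -0.61 and -0.57. For IMPDH1 and GART another probe had a difference of the opposite sign. Of 14 tested genes of deoxyribonucleotide supply 1 was higher, RRM2B, and 3 were lower, NME2 (-0.79), DUT (-0.61) and DCTD (-0.53). Another probe of DUT had the opposite sign, and another NME2 probe gave -0.147. The share called was 28.6%, against 14.7% of all features.

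Genes of polyamine synthesis and amino acid supply gave further large values. SRM, which makes spermidine and belongs to none of the lists, was at 1990.2 and 873.4 in BC1, at 2030.6 and 2615.8 in BCP1, and at 2173.8 and 2465.5 in BCBL1. The lines were level with vehicle, and the BC1 difference was -1.46 ± 0.16. SLC7A5, a transporter of large neutral amino acids, was at 1129.4 and 397.0 in BC1, at 709.7 and 882.0 in BCP1, and at 923.4 and 815.8 in BCBL1, for a difference of -1.58 ± 0.17. It led the ATF4 and amino acid list, in which 7 of 21 were lower and 2 higher, and 10 of 21 had a positive ratio in BC1. Of that list 42.9% were called, against 14.7% of all features. PSAT1 and PHGDH, enzymes of serine synthesis, had differences of -0.84 and -0.70, and asparagine synthetase ASNS -0.67. DDIT3 (CHOP), of the same list, had responses of 0.66, 0.73 and 1.10 in BCP1, BCBL1 and BC1 and was not called.

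Of 28 tested genes of glycolysis and the hypoxia response, 10 were lower and 1 was higher, with a median of -0.31. Called members made up 39.3%, against 14.7% of all features. Hexokinase HK2 was at 640.9 and 230.0 in BC1 and had a difference of -1.26 ± 0.16. The glucose transporter SLC2A1 was at 494.8 and 307.7 in BC1, at 261.7 and 334.8 in BCP1, and at 294.1 and 446.4 in BCBL1, and had a difference of -1.16 ± 0.16. It was lower with 3-AP in BC1 and higher in the other lines. GPI, PGAM1, ENO1 and LDHA had differences of -0.83, -0.55, -0.54 and -0.51.

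Protein folding and antigen presentation were read from other lists. Of 24 tested genes of the unfolded protein response 7 were lower in BC1 and 1 was higher, with a median of -0.31. Called members made up 33.3%, against 14.7% of all features. MANF, a secreted endoplasmic reticulum stress protein, had responses of 0.45 in BCP1 and 0.55 in BCBL1, against -0.43 in BC1. The higher member was PPP1R15A (GADD34), which restarts translation. It was at 491.7 and 2238.2 in BC1, at 520.5 and 1110.1 in BCP1, and at 553.7 and 1110.0 in BCBL1, and its difference was 1.14 ± 0.16. Of 16 tested MHC class II genes 4 were lower and 1, RFX5 at 0.65, was higher, so that 31.2% were called. HLA-DRA was at 4349.1 and 3648.4 in BC1, at 4333.8 and 7154.5 in BCP1, and at 3111.0 and 4366.8 in BCBL1, for a difference of -0.86 ± 0.16. CIITA, an activator of these genes, had a difference of -0.61. Its responses were -0.62 in BC1, -0.24 in BCP1 and 0.23 in BCBL1, so the other lines moved opposite ways. Of 17 MHC class I genes 1 was called (5.88%), below the share over all features, with a median of 0.01.

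Lysosomal genes were on the other side. Of 28 tested, 9 were higher and 1 was lower, with a median of 0.24. Called members made up 35.7%, against 14.7% of all features. The cholesterol-binding protein NPC2 was at 3127.6 and 8260.8 in BC1, at 3835.4 and 5256.1 in BCP1, and at 3711.7 and 5223.3 in BCBL1. Its difference was 0.93 ± 0.16, and LAMP2, TPP1 and CTSL had differences of 0.84, 0.83 and 0.66. The lower member was the autophagy receptor SQSTM1 (p62), at 1732.8 and 2752.9 in BC1, 2700.5 and 7368.3 in BCP1, and 1995.9 and 6688.1 in BCBL1, for a difference of -0.93 ± 0.16. It was higher with 3-AP in every line, and least so in BC1.

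Genes of mitosis had negative median responses in every line. Of 40 tested G2/M and mitosis genes 8 were lower and 1 was higher, and the median responses were -0.64 in BC1, -0.38 in BCP1 and -0.52 in BCBL1. CDC20, the activator of the anaphase-promoting complex, had responses of -2.13, -1.40 and -1.54 in the same order, and TOP2A was the higher member at 0.55. Of 34 DNA replication genes 5 were lower and 0 higher, and of 18 G1/S genes 3 were higher and 2 lower. The share called either way was 27.8% for G1/S genes and 22.5% for G2/M and mitosis genes. For DNA replication genes it was 14.7%, the same as over all features, so that share is no result of its own. All calls among DNA replication genes were lower, while 7.42% of all features were called lower, and 26 of the 34 had a negative difference. Of 23 tested small RNAs of polymerase III, the U type and U3, 0 were called by limma (4 at an unadjusted p under 0.05). Their median responses were 2.39 in BCP1, 1.17 in BCBL1 and 1.42 in BC1, so that BC1 lay between the others. Apoptosis regulators held 5 higher and 0 lower of 15, against 7.24% of all features called higher. Among them were MCL1 (0.81, second probe 0.03) and APAF1 (0.65, second probe 0.24). Differences between lists were not tested.

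**Figure D4:**
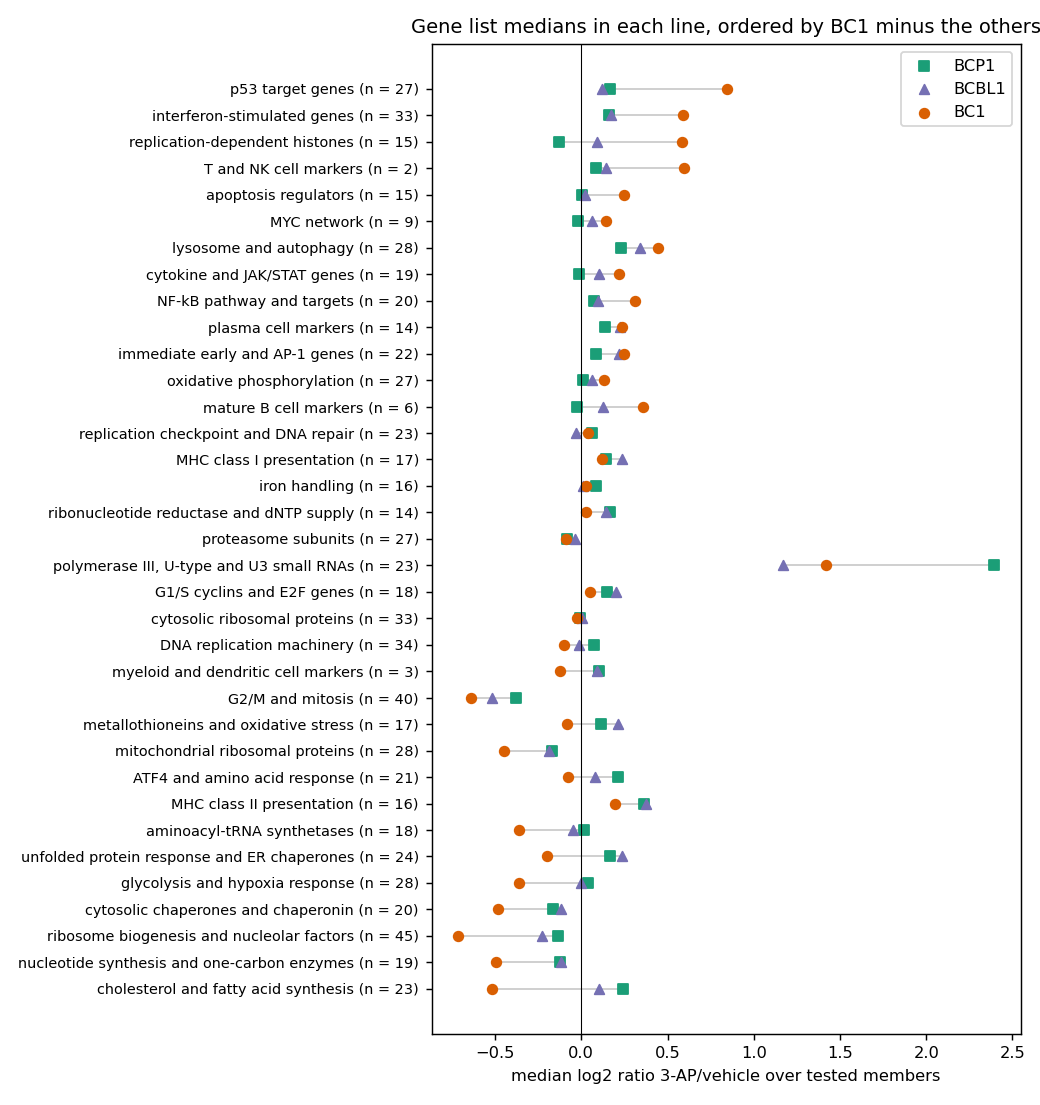
The median log2 ratio of 3-AP over vehicle over the tested members (horizontal axis) is shown for 35 gene lists, with 1 symbol per cell line and n for the tested members. Lists are ordered by the median BC1 difference. The p53 targets are at the top and cholesterol and fatty acid synthesis at the bottom, and cytosolic ribosomal proteins and the proteasome lie together near 0.

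Outside the lists, the lowest differences were of varied genes. DHRS2, a mitochondrial dehydrogenase, was at 1175.1 and 169.5 in BC1, at 189.5 and 145.5 in BCP1, and at 325.9 and 206.3 in BCBL1. BC1 was the highest line with vehicle, and its ratio was 6.93-fold lower with 3-AP, for a difference of -2.27 ± 0.16. ASZ1, a germ cell protein, was at 2795.4 and 446.3 in BC1, at 6386.4 and 3950.2 in BCP1, and at 5434.5 and 3362.2 in BCBL1. Its difference was -1.95 ± 0.16, and SYT4, a synaptotagmin, had one of -1.73 ± 0.16 with a like pattern. The fatty acid-binding protein FABP5 was at 6363.4 and 2355.7 in BC1, at 2946.5 and 3653.4 in BCP1, and at 2926.8 and 3327.4 in BCBL1, for a difference of -1.68 ± 0.16. A 28S ribosomal RNA probe (RNA28SN5, of a multicopy gene) was higher with 3-AP in all lines, with responses of 1.10 in BC1 against 3.67 in BCP1 and 3.39 in BCBL1. Its difference of -2.43 was the lowest among genes detected on all 4 arrays, and a second probe gave -0.64.

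At the upper end stood genes of several kinds. BHLHE40, a transcriptional repressor of the clock and stress responses, was at 1424.5 and 3498.6 in BC1, at 1296.9 and 1210.0 in BCP1, and at 2313.0 and 2013.0 in BCBL1, for a difference of 1.45 ± 0.16. YPEL3, a growth suppressor, was at 342.1 and 1171.3 in BC1 and had a difference of 1.35, BCAS4 one of 1.40 and the cation channel TRPM8 one of 1.37. The cytidine deaminase APOBEC3F had a difference of 1.44, while another of its 3 probes was at -0.16. Among plasma cell markers, CD38 was at 572.7 and 1346.1 in BC1, with a difference of 1.00. The kinase PIM2 and the regulator PRDM1 had 0.99 and 0.72, and FKBP11 was lower at -0.98. BACH2, a repressor of plasma cell differentiation, was at 142.4 in BC1 with vehicle, where it was not detected, and at 285.7 with 3-AP, so the size of its difference is uncertain.

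A small set of features went opposite ways. At least 0.5 log2 units in BC1 and at least 0.25 the other way in both other lines was met by 16 features, 5 higher and 11 lower in BC1. This choice fixes a wide difference, so the differences are descriptions. MUC1, a membrane mucin, was at 14846.8 and 8826.6 in BC1, at 1056.2 and 1423.6 in BCP1, and at 1796.4 and 2908.0 in BCBL1, so that BC1 was the brightest line by far. Its difference was -1.31 ± 0.16. S100A4, a calcium-binding protein, was at 1747.1 and 766.3 in BC1, at 12150.8 and 14875.6 in BCP1, and at 11008.3 and 13668.5 in BCBL1. Its difference was -1.49 ± 0.16, with BC1 far dimmer than the others. MSX1, a homeobox factor, was at 691.8 and 1971.3 in BCP1, at 886.3 and 2302.7 in BCBL1, and at 206.9 and 134.4 in BC1, where it was not detected with 3-AP. With BC1 at background there, the size of its difference is uncertain. The non-coding RNA BCYRN1 had responses of -0.92 in BC1 against 0.33 in BCP1 and 0.67 in BCBL1. ARHGEF3 was at 161.8 and 329.8 in BC1, at 1688.7 and 1375.4 in BCP1, and at 1300.9 and 1027.3 in BCBL1, for a difference of 1.35 ± 0.16. It was dim in BC1 with vehicle, and after background subtraction its difference was 2.54, so the size is uncertain.

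Another 34 features responded in both other lines by at least 0.5 log2 units the same way and in BC1 by under 0.15, 18 of them higher and 16 lower in the other lines. COXFA4L3, a mitochondrial protein related to a subunit of cytochrome c oxidase, was at 240.5 and 1317.1 in BCP1 and at 287.1 and 2019.5 in BCBL1. In BC1 it was at 144.2, not detected, and at 152.8. The urokinase gene PLAU was at 163.4 and 304.0 in BCP1, at 196.8 and 621.0 in BCBL1, and at 149.4, not detected, and 152.2 in BC1. Both genes lay at or near background in BC1, so the sizes of their differences are uncertain. TMC6, a membrane channel-like protein, was detected on both BC1 arrays, at 372.8 and 353.9, against 893.9 and 1346.0 in BCP1 and 722.9 and 1358.9 in BCBL1.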

How the data were processed

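Total RNA from 3 cell lines, each with vehicle or 3-AP, was labelled as cRNA and hybridised to Illumina HumanHT-12 bead arrays, 1 array per line and agent, per the labels' protocols. The authors deposited 1 processed intensity per probe and array for 47323 probes, and, in a non-normalized table, signals with a detection p-value each, per the file headers. The sources used here do not give the scanning software or the normalization. The non-normalized columns of BCP1 held the processed BCBL1 intensities (100% of probes equal), so the deposited detection p-values were used for the 4 arrays of BCBL1 and BC1 only. In the nec setting, BCP1 was given the mean detection profile of those 4 arrays by intensity rank. The share of probes detected there, at p under 0.05, ran from 37% to 39.2%. The number of arrays limits the precision.

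Of all probes, 13 with a value of 0 or less were left out. Probes detected on at least 1 array of BC1 and 1 of BCBL1 were kept (17026). The probe annotation gave 1 symbol for 30113 probes, several for 8 and none for 17202, and the kept probe with the highest mean stood for its gene. Log2 intensities were fitted in R 4.3.3 with limma 3.58.1 (lmFit, eBayes) with line, agent and agent by BC1, and p-values were adjusted by Benjamini-Hochberg. Vehicle and 3-AP samples of 1 number are of the same cell line, which is the pairing. The fit had 1 residual and 61.6 prior degrees of freedom, and the gap between the BCP1 and BCBL1 responses is the spread behind each p-value. On simulated data with 13875 features it called 43.3% of differences of 0.5 log2 units and 100% of those of 1, with 2 false calls. The simulated spread was taken from the same fit, so BC1 varied there as the test assumes. The simulation therefore cannot show how many calls are false where BC1 varies otherwise.

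The comparison, its members, the 35 gene lists, the motifs and the rule for named genes were chosen with earlier results of these data known. The rule named the 12 highest and 12 lowest differences among called genes detected on all 4 arrays with detection p-values, up to 3 members of each list (10 of the 3 lists with the highest and the 3 with the lowest medians), up to 6 genes moving opposite ways, up to 6 absent from BC1, and RRM1, RRM2, RRM2B, MYC and CDKN1A. It gave 168 genes, of which 144 were called. Other list members named in the text, and members detected in BC1 only, were named to complete a count and chosen after their values were seen. Of the 168, 65 had several kept probes, and for 7 another probe had the opposite sign (APOBEC3F, CD68, CDKN1A, DUT, GART, IMPDH1, MSMO1). Another probe could also give a far smaller difference of the same sign, as for STAT3 (0.31 against 0.87) and LAMP2 (0.27 against 0.84). In all, 12 alternatives were run.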

Additional observations from a re-analysis of the deposited data

Results flagged for a closer look

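The response to 3-AP differed between BC1 and the other lines, by limma's test of that difference, for 2034 features. Genes drew attention for opposite slopes, where every pair of the other lines moved one way and the BC1 pair the other. BC1 minus the mean of the others was 1.35 for ARHGEF3, 1.54 for H2BC4, -1.42 for BCYRN1, -2.07 for MSX1, -1.31 for MUC1 and -1.49 for S100A4. The choice of opposite slopes fixes that limma's test calls them, so the calls add nothing. Without line as a block MUC1 (limma adjusted p = 0.258), BCYRN1 (0.0525) and ARHGEF3 (0.0521) did not pass.

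Features detected on both BC1 arrays and on neither BCBL1 array lay outside the tested set. They numbered 733, of which 422 had a symbol, and 1.23% of them were 2-fold or more apart between 3-AP and vehicle in BC1, against 2.4% of the tested features. The named ones were LINC01451, with a log2 ratio of 2.37 in BC1, IFI27 with 2.30, MX1 with 2.04, TRIM22 with 1.98, PHLDA3 with 1.06 and IFIT1 with 1.02. On the lower side were the fatty acid transporter SLC27A2 with -1.09 and the presynaptic protein PCLO with -1.14. Each rests on 1 pair of arrays and has no test.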

How the results depend on the processing

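Both calls and sizes depended on the setting. The count of called features was 2034. It was 0 after background subtraction with limma's nec (2530 at unadjusted p under 0.05), 720 with responses scaled to a common SD and 96 with no replicate block for the cell line. With the other settings that allow a test it lay between 1779 and 2409. The count of differences of at least 1 log2 unit, 123, was 907 after nec, 64 after scaling and 129 to 153 without replicate 1 (BCP1) or 2 (BCBL1), which leave no test. Replicate 3 is BC1 and cannot be left out. Median differences after nec were -0.61 for ribosome biogenesis, -0.51 for nucleotide synthesis, 0.91 for histones, 0.83 for p53 targets, 0.58 for interferon-stimulated genes and -0.90 for cholesterol. After scaling they were -0.31, -0.29, 0.48 for p53 and 0.41 for interferon. With 50 added before log2, nucleotide synthesis was at -0.46, p53 at 0.65 and interferon at 0.52. With no filter, nucleotide synthesis was at -0.44, histones at 0.18 and interferon at 0.43. With the strict filter, p53 was at 0.78, interferon at 0.59 and cholesterol at -0.77. With the mean of probes, nucleotide synthesis was at -0.32 and p53 at 0.60. In the non-normalized signals of BC1 and BCBL1, quantile-normalized here, nucleotide synthesis was at -0.39, histones at 0.27 and interferon at 0.54. Without replicate 1 or 2, ribosome biogenesis ranged from -0.52 to -0.44, nucleotide synthesis from -0.50 to -0.38, histones from 0.32 to 0.68, p53 from 0.68 to 0.72, interferon from 0.49 to 0.57 and cholesterol from -0.76 to -0.69. No list median among these 6 changed its sign. Single genes reversed in some settings. CD68 was at -0.36 with the mean of probes. After scaling, CDKN1A was at -0.032, MYC at 0.13, RNU6-1 at -0.42 and RRM2 at -0.27. RRM2 was at -0.008 after nec. In the non-normalized signals of BC1 and BCBL1, again after quantile normalization, H1-2 was at -0.16, RRM1 at 0.026 and RRM2 at -0.092. Without replicate 1 or 2, H1-2 ranged from -0.16 to 0.417, RRM1 from -0.078 to 0.045 and RRM2 from -0.086 to 0.112. Of the 144 named genes called, 34 were also called with no replicate block. The causes of these shifts were not tested.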
